A study of Mus musculus with 10 samples.

Results

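The genes described here are those of the mouse major histocompatibility complex (MHC) and its peptide supply line, measured in liver. They were chosen by name: every gene whose symbol begins with H2-, together with B2m, Tap1, Tap2, Tapbp, Psmb8, Psmb9, Psmb10, Nlrc5, Ciita and Cd74. This gave 36 genes, 26 with the H2- prefix and 10 others, of 18869 gene identifiers in the deposited table. The set was put together with the wild-type against Nrf2Act-hep difference of these same libraries already known. Differences between the genotypes are therefore given as a description, without a test, and the genes passing the threshold of the fit across all genes are counted for orientation only.

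Each library was made from the liver of C57BL/6 mice of 6 weeks that were fed regular chow and fasted for 15 h. There were 5 wild-type (WT) libraries, replicates 1 to 5, and 5 libraries of the genotype named Nrf2Act-hep, replicates 6 to 10, in which NRF2 is activated in the liver. The labels do not say by which allele or promoter NRF2 was activated, nor that each library came from its own animal, so spreads may be partly technical. A letter in the titles, M or F, is not explained there: M marks replicates 1, 2, 6, 7 and 8, and F the other libraries, so the genotypes hold the letters in unequal numbers (2 M and 3 F in WT, 3 M and 2 F in Nrf2Act-hep). NRF2 is the transcription factor that switches on antioxidant defence. The series title names growth factor genes, AKT signalling and liver enlargement as its subject, and antigen presentation is not mentioned there.

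MHC class I molecules sit on nearly all nucleated cells and show peptides from inside the cell to CD8 T cells. Each is a heavy chain paired with beta-2-microglobulin (B2m), loaded with peptides cut by the proteasome, pumped into the endoplasmic reticulum by TAP and edited by tapasin (Tapbp). The classical, or class Ia, heavy chains of C57BL/6 mice come from H2-K1 and H2-D1, and the class Ib genes of the Q, T and M groups encode relatives with narrower roles. Class II molecules are made by macrophages, dendritic cells and B cells and show peptides taken up from outside to CD4 T cells. Their transcription depends on CIITA, and NLRC5 contributes to that of class I genes.

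The libraries held 1267745 to 2287727 reads in WT and 2167528 to 2806670 in Nrf2Act-hep, so 3 reads, taken here as the limit of detection, equal 1.07 to 2.37 CPM. A read is a tag near the 3′ end of a transcript and the number of tags does not grow with transcript length, so levels of different genes are compared as CPM without a length term. Values are CPM after TMM scaling, which corrects for differences in library composition, and fold changes are differences of log2(CPM + 1) with the letter as a covariate, which understates the change of low genes. The filter on low values kept 8075 genes and 15 of the 36 described here. Both classical genes, 4 of 14 class Ib genes, 5 of 8 genes of peptide supply and class I control, 3 of 9 class II genes and 1 of 2 class II partners were kept. The liver identity was clear, with the hepatocyte gene Alb at 29502 ± 2030 CPM in WT against 21586 ± 3748 CPM in Nrf2Act-hep (SD, n = 5 each).

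The promoters of the 4 genes past the filter whose library values did not overlap between the genotypes are shown because these genes are close relatives that differed in opposite directions. Each window runs from 250 bases before to 50 bases after the start of the RefSeq transcript on GRCm38.p6, 5′ to 3′ on the gene's strand. All lie on chromosome 17, H2-Q7 at chr17:35438905-35439204 on the plus strand, H2-K1 at chr17:34000298-34000597 on the minus strand, H2-Q10 at chr17:35469839-35470138 on the plus strand and H2-D1 at chr17:35262844-35263143 on the plus strand. H2-K1 has 2 such windows and the one starting farther upstream is printed. Capitals mark matches, on either strand, to a CCAAT box (CCAAT), a kappa B core (GGGANTCCC), an antioxidant response element core (TGACNNNGC) or an interferon element, a pair of GAAA blocks 2 bases apart.
H2-Q7: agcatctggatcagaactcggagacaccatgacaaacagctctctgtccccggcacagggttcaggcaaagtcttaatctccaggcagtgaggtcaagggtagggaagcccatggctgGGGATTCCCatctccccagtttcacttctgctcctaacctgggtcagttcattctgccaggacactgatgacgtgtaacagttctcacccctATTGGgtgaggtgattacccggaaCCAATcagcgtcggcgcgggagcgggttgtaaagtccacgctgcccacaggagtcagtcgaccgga
H2-K1: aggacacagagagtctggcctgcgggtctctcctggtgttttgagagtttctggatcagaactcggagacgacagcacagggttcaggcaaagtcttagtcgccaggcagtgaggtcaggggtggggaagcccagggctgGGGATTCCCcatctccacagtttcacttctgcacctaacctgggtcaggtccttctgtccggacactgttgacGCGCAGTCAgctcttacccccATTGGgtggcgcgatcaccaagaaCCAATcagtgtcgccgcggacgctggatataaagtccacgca
H2-Q10: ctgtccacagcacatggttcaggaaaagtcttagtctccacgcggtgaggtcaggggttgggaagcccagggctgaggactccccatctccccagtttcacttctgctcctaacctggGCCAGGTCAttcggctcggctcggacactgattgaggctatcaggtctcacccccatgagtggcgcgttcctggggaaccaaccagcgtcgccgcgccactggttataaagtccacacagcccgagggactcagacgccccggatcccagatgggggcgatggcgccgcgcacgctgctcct
H2-D1: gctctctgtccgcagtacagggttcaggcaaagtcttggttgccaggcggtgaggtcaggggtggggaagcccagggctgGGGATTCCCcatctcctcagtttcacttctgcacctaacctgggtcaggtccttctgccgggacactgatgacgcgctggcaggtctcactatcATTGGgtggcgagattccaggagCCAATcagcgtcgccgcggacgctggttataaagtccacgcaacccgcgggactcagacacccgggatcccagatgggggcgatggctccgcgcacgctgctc

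These 4 windows were alike over most of their length. The aligned parts of the H2-K1 and H2-D1 windows were 88.3% identical over 239 bases, and the lowest pair, H2-Q7 and H2-Q10, reached 84.1% over 252 bases. The windows of H2-K1, H2-D1 and H2-Q7 each held 1 kappa B core and 2 CCAAT boxes, and that of H2-Q10 held neither. The antioxidant response element core, the letters NRF2 is known to bind, was matched once in H2-K1 and once in H2-Q10 and not in the windows of H2-D1 and H2-Q7. None of the 4 matched the interferon element in the exact form searched, and looser forms of it were not searched. RefSeq gave 27 windows for 25 of the 36 genes. Of these, 5 held the kappa B core (18.5%, against 0.767% of all 32851 promoter windows), 22 a CCAAT box (81.5% against 37.4%), 6 the antioxidant core (22.2% against 12.4%) and 3 the interferon element (11.1% against 3.44%), the last in B2m, H2-T22 and H2-T23. The windows of H2-K1 overlap and hold the same matches, so its sites are counted more than once among the 27. Relatives share ancestry, so these windows are not independent, and a match of letters does not show that a factor binds there.

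The classical class I genes went in opposite directions. H2-K1 (ENSMUSG00000061232, chromosome 17, 33996017 to 34000347 on GRCm38, minus strand) stood at 566, 553, 543, 414 and 522 CPM in WT replicates 1 to 5 and at 241, 339, 279.8, 284 and 292 CPM in Nrf2Act-hep replicates 6 to 10. Every Nrf2Act-hep library was below every WT library. Its means were 519.6 ± 61.2 and 287 ± 35.3 CPM (SD, n = 5 each), a log2 fold change of -0.87 ± 0.13 (SE). H2-D1 (ENSMUSG00000073411, chromosome 17, 35262730 to 35267499, plus strand) stood at 207, 183, 183, 164 and 216 CPM in WT and at 238, 326, 238, 269 and 276 CPM in Nrf2Act-hep. Here every Nrf2Act-hep library was above every WT library. Its means were 191 ± 20.8 and 269 ± 36.0 CPM, a log2 fold change of 0.49 ± 0.12. The libraries are of whole tissue, in which fewer cells of a type and less RNA per cell cannot be told apart.

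**Figure D1:**
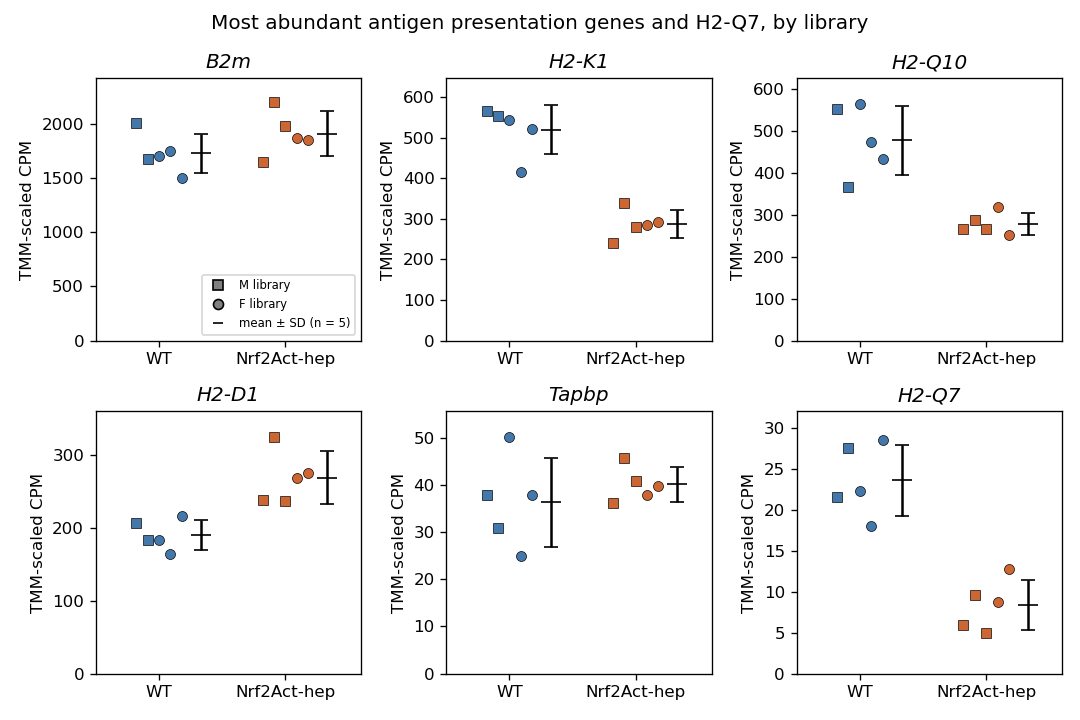
TMM-scaled CPM (vertical axes, each from 0) of H2-Q7 and the 5 genes averaging 20 CPM or more in the 5 WT and 5 Nrf2Act-hep libraries, squares for M and circles for F, with the mean and SD beside each group. H2-K1, H2-Q10 and H2-Q7 lie lower in every Nrf2Act-hep library, H2-D1 lies higher in every one, and B2m and Tapbp overlap.

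Because both genes are read from the same library, their ratio does not depend on scaling. H2-K1 made up 73.2%, 75.1%, 74.7%, 71.6% and 70.7% of the reads of both genes in WT replicates 1 to 5, from 880 to 1657 reads per library. In Nrf2Act-hep replicates 6 to 10 its share was 50.3%, 51.0%, 54.0%, 51.4% and 51.4%, from 1124 to 1654 reads. The shares averaged 73.1 ± 1.91% and 51.6 ± 1.43% (SD, n = 5 each), so H2-K1 outnumbered H2-D1 by 2.73 ± 0.26 to 1 in WT and by 1.07 ± 0.063 to 1 in Nrf2Act-hep. The lowest 95% Wilson bound of a WT library, 68.5% in replicate 5, lay above the highest of a Nrf2Act-hep library, 56.9% in replicate 8. These intervals cover counting error only. Within the M libraries H2-K1 stood at 73.2% and 75.1% in WT against 50.3% to 54.0%, and within the F libraries at 70.7% to 74.7% against 51.4% in both, so the gap was present under each letter. The ratio was formed after the values of both genes had been seen.

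Counting could move reads between such similar genes, and the sources used here do not name the aligner or the counting rules behind the deposited table. In the last 400 bases of the longest GENCODE protein-coding transcript, 0 of 326 windows of 75 bases, the read length, were shared exactly between H2-K1 and H2-D1 or with any other gene. The same held for H2-Q7, H2-Q10 and B2m. H2-T22 shared 45.4% of its windows with H2-T10, and H2-Q4 shared 20.6% of its windows with other genes, so the values of these last genes are uncertain. Exact matches say nothing of reads that carry a mismatch, and the part of counting in the H2-K1 and H2-D1 values was not tested.

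**Figure D2:**
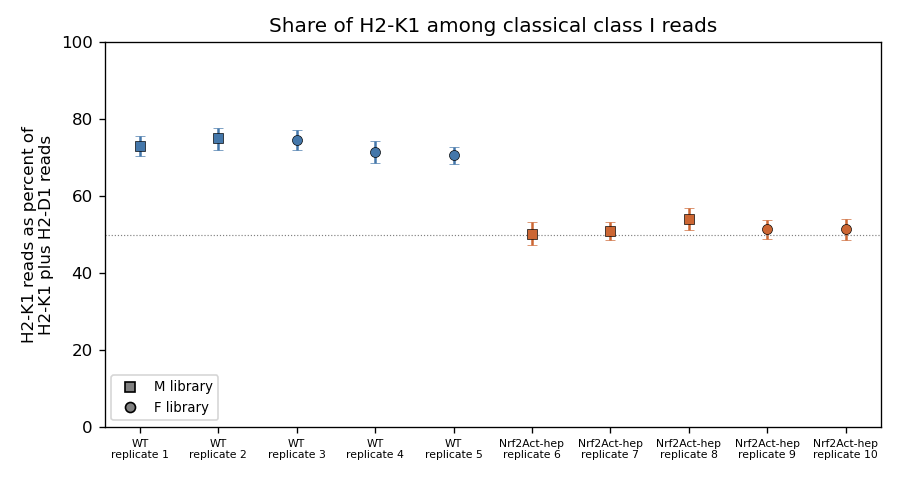
Reads of H2-K1 as a percent of the reads of H2-K1 and H2-D1 together (vertical axis) in each of the 10 libraries (horizontal axis), squares for M and circles for F, with 95% Wilson intervals for counting error. The 5 WT libraries lie between 70.7% and 75.1% and the 5 Nrf2Act-hep libraries between 50.3% and 54.0%, close to the dotted line of equal reads.

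Of the class Ib genes, H2-Q10 and H2-Q7 were lower in Nrf2Act-hep. H2-Q10 (ENSMUSG00000067235, chromosome 17, 35470089 to 35474563, plus strand) encodes a secreted class I protein made chiefly by the liver, and it was almost as abundant as H2-K1. It stood at 551, 367, 564, 473 and 433 CPM in WT and at 267, 289, 267, 319.8 and 251 CPM in Nrf2Act-hep, with no overlap. The means were 478 ± 82.4 and 279 ± 26.5 CPM, a log2 fold change of -0.75 ± 0.13. H2-Q7 (ENSMUSG00000060550, chromosome 17, 35439155 to 35443773, plus strand), which encodes a Qa-2 antigen, stood at 21.6, 27.6, 22.3, 18.0 and 28.5 CPM in WT and at 5.96, 9.65, 5.01, 8.74 and 12.7 CPM in Nrf2Act-hep. All 5 Nrf2Act-hep values were below the WT range, and the log2 fold change of -1.38 ± 0.22 was the largest in size among the 15 genes kept. H2-T22, which encodes a ligand of gamma-delta T cell receptors, had overlapping values with means of 20.7 ± 5.80 and 18.5 ± 4.02 CPM (log2 fold change -0.19 ± 0.20), and H2-Q4 likewise with 6.42 ± 1.65 and 4.39 ± 2.14 CPM (-0.48 ± 0.30).

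The remaining 10 class Ib genes were below the filter. Their read totals are not scaled for depth, and the Nrf2Act-hep libraries were deeper (median 2306308 reads against 1639434 in WT). H2-Q1 had 20 WT reads and 6 Nrf2Act-hep reads, with 2 to 6 per WT library and 0 to 2 per Nrf2Act-hep library. After scaling its means were 2.37 and 0.466 CPM without overlap, but every Nrf2Act-hep library and 2 WT libraries were under the limit of 3 reads. H2-Q6, next to H2-Q7, had 11 and 5 reads (1.11 and 0.388 CPM after scaling). H2-T24 went the other way with 7 and 29 reads (0.748 and 2.29 CPM). H2-T23, which encodes Qa-1, had 7 and 20 (0.957 and 1.61 CPM). H2-M3, which presents formylated peptides, had 17 and 22 reads, or means of 2.09 and 1.78 CPM after scaling. H2-K2, H2-T10, H2-Bl, H2-Q2 and H2-T3 had at most 9 reads per genotype. When all 36 genes were fitted without a filter, the 4 called genes were H2-K1, H2-D1, H2-Q10 and H2-Q7, and none of those below the filter was called.

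B2m and the peptide supply genes differed less. B2m (ENSMUSG00000060802, chromosome 2, 122147686 to 122153083), the light chain shared by all class I molecules, was by far the most abundant of the 36 genes. It stood at 2011, 1682, 1703, 1750.0 and 1507 CPM in WT and at 1649, 2209, 1983, 1877 and 1853 CPM in Nrf2Act-hep. The groups overlapped, with means of 1731 ± 182 and 1914 ± 204 CPM and a log2 fold change of 0.12 ± 0.12. The tapasin gene Tapbp stood at 37.8, 31.0, 50.3, 25.0 and 37.9 CPM in WT and at 36.2, 45.8, 41.0, 38.0 and 39.8 CPM in Nrf2Act-hep, again with overlap (0.17 ± 0.16). Tap1, a subunit of the peptide pump, stood at 12.3 ± 3.24 and 9.20 ± 1.21 CPM (-0.31 ± 0.20). The immunoproteasome subunit Psmb8 stood at 8.59 ± 2.42 and 13.6 ± 2.21 CPM (0.62 ± 0.22) and overlapped by a small margin, its highest WT value of 10.9 CPM in replicate 2 lying just above its lowest Nrf2Act-hep value of 10.6 CPM in replicate 6. Psmb10, a further subunit, ran from 4.01 to 11.5 CPM in WT and from 4.68 to 8.62 CPM in Nrf2Act-hep (-0.07 ± 0.27), and its direction turned on the deposited scale, which applies no TMM factor (0.04), and without WT replicate 1 (0.17) or Nrf2Act-hep replicate 6 (0.020).

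Below the filter, read totals are given with mean CPM, since the Nrf2Act-hep libraries were deeper. Psmb9, the third inducible subunit, had 24 WT reads and 59 Nrf2Act-hep reads (3.01 and 4.65 CPM). Tap2, the partner of Tap1, had 12 and 19 reads (1.48 and 1.48 CPM), and the class I regulator Nlrc5 20 and 20 (2.36 and 1.62 CPM). H2-Ke6, which has the prefix but encodes no MHC protein, had 4 and 6 reads (0.481 and 0.479 CPM).

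The heavy chain total was lower while its partner was not. Summed over class Ia, the level was 774, 736, 726, 578 and 738 CPM in WT and 478, 665, 518, 553 and 568 CPM in Nrf2Act-hep. This sum adds the higher H2-D1 to the lower H2-K1, and its ratio of Nrf2Act-hep to WT was 0.783. A link between these genes was not tested. The groups overlapped through WT replicate 4 and Nrf2Act-hep replicate 7. Summed over class Ib, which H2-Q10 dominates, the level was 538 ± 78.0 CPM in WT against 318 ± 30.6 CPM in Nrf2Act-hep without overlap. All 16 class I genes together gave 1248 ± 118 and 874 ± 86.6 CPM, counting H2-K2, H2-T10 and H2-Bl, which are annotated as pseudogenes. Set against this total, B2m was 1.39 ± 0.149 times as abundant in WT, from 1.21 to 1.59, and 2.19 ± 0.131 times in Nrf2Act-hep, from 2.05 to 2.40. No library of one genotype reached the range of the other.

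**Figure D3:**
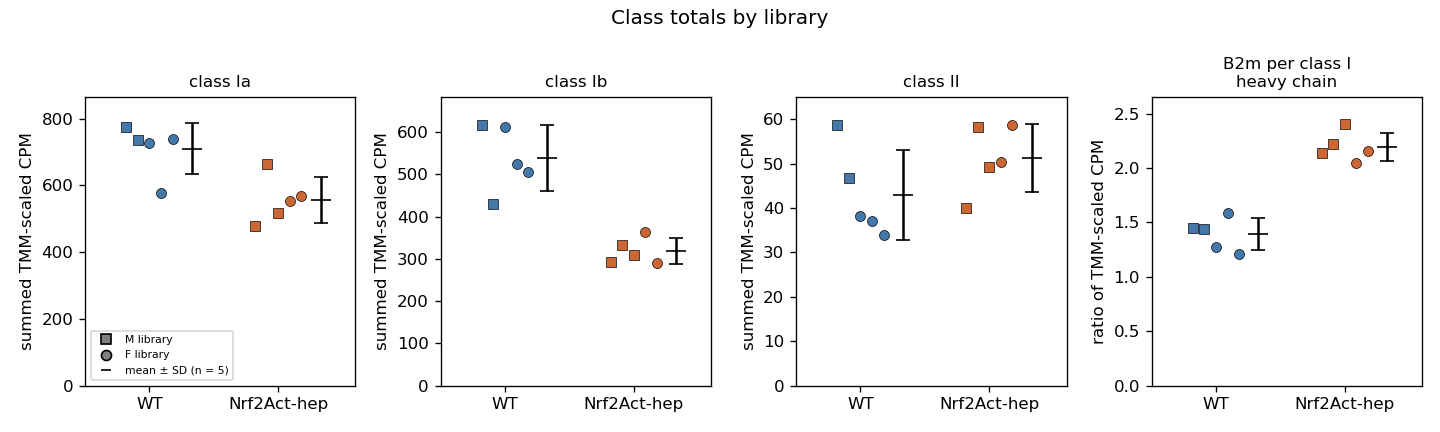
Summed TMM-scaled CPM of class Ia, class Ib and class II genes, and B2m CPM divided by the summed CPM of all class I heavy chains (vertical axes, each from 0), for the 5 WT and 5 Nrf2Act-hep libraries, squares for M and circles for F, with mean and SD. The class Ib totals and the B2m ratio do not overlap between the genotypes, and the class Ia and class II totals do.

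Class II genes were low. H2-Ab1 and H2-Aa, which encode the chains of the I-A molecule, overlapped between the genotypes. H2-Ab1 ran from 12.8 to 23.0 CPM in WT and from 13.6 to 22.9 CPM in Nrf2Act-hep (log2 fold change 0.06 ± 0.20), and its direction turned when WT replicate 4 or Nrf2Act-hep replicate 7, 9 or 10 was left out (-0.01, -0.016, -0.0062 and -0.091). H2-Aa stood at 14.0 ± 2.23 and 17.7 ± 1.24 CPM (0.32 ± 0.17). H2-Eb1, the beta chain of I-E, stood at 6.42 ± 2.91 and 7.59 ± 1.07 CPM (0.22 ± 0.25; -0.021 without WT replicate 2). H2-Ea-ps, the defective alpha chain gene of I-E in this strain, had 0 WT reads and 1 read in Nrf2Act-hep. Cd74, the invariant chain that holds the class II groove until loading, lies on chromosome 18 and stood at 10.1 ± 2.53 and 14.0 ± 1.88 CPM (0.48 ± 0.20).

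H2-DMa and H2-DMb1, which exchange peptides on class II, had 20 and 12 reads in WT and 53 and 32 in Nrf2Act-hep, and H2-DMb2 had 7 and 4. Scaled for depth, the means of H2-DMa were 2.52 and 4.32 CPM and those of H2-DMb1 1.65 and 2.55 CPM. H2-Oa and H2-Ob, which restrain that exchange, had at most 6 reads per genotype. Ciita, the master regulator of class II, was listed at 0 in all 5 WT libraries and had 6 reads in Nrf2Act-hep, of which 5 were in replicate 7. The class II total was 43.0 ± 10.1 CPM in WT against 51.3 ± 7.68 CPM in Nrf2Act-hep, highest in WT replicate 1 (58.8 CPM) and Nrf2Act-hep replicate 10 (58.7 CPM).

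Read against the whole table, 1 of the 15 genes kept was higher (H2-D1) and 3 were lower (H2-K1, H2-Q10 and H2-Q7) at an adjusted p under 0.05 in limma, and 11 were not called. Over all 8075 genes 4.64% were called, 2.79% higher and 1.86% lower. Among the 15, the same 4 genes were those whose library values did not overlap, as held for 5.14% of all genes, 3.05% higher and 2.09% lower. The median log2 fold change was 0.06 among the 15 and 0.01 among all genes, and its median size was 0.32 and 0.18. Nothing is read from these counts, since the genes were put together with this contrast known. H2-D1 was at the edge of the threshold: it was not called without WT replicate 2 (log2 fold change 0.47) or 4 (0.44) or without Nrf2Act-hep replicate 7 (0.42), 9 (0.48) or 10 (0.47). In the M libraries alone H2-K1, H2-Q10 and H2-Q7 were called, and in the F libraries alone, with 3 against 2 libraries, 0 of the 15 were, although H2-K1 (-0.76), H2-Q10 (-0.78), H2-Q7 (-1.03) and H2-D1 (0.54) kept their direction.

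**Figure D4:**
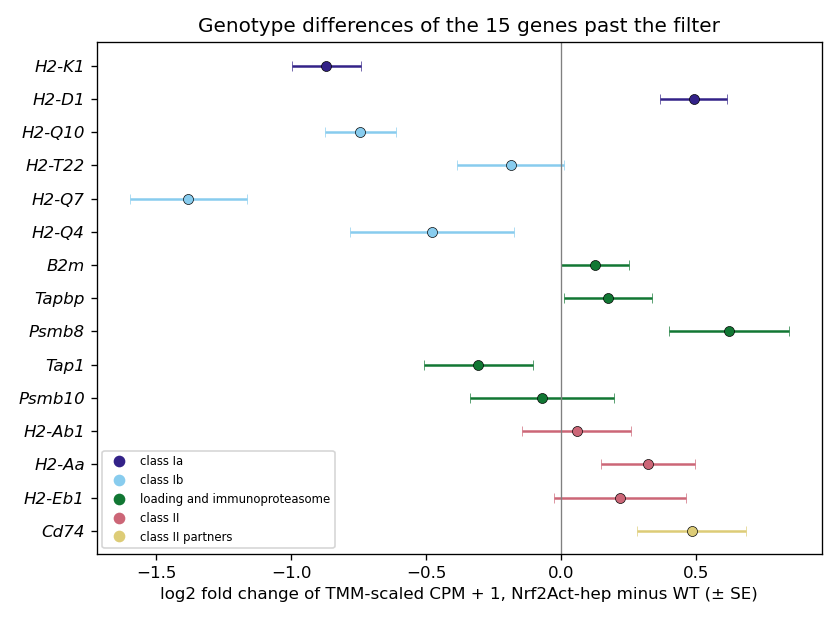
Log2 fold change of TMM-scaled CPM + 1, Nrf2Act-hep minus WT, with its standard error (horizontal axis), for the 15 genes past the filter, coloured by class and ordered by mean level within a class. H2-K1, H2-Q10 and H2-Q7 lie at -0.87, -0.75 and -1.38 and H2-D1 at 0.49, and the others lie between -0.48 and 0.62.

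Genes of opposite direction lay near each other. Of the 36 genes, 31 lie on chromosome 17, and 12 of the 15 kept fall within 2.13 Mb there, from 33915899 to 36042747 on GRCm38. This interval was set after the values had been seen. It held 41 other tested genes, of which 2 were higher and 2 lower (9.76%, against 4.64% of all 8075 genes). Their median log2 fold change was -0.08. Nothing is read from this share, which rests on 4 genes. Apom, an apolipoprotein of high-density lipoprotein, was lower, at 127 ± 25.4 and 68.8 ± 17.8 CPM (-0.82 ± 0.15; limma, adjusted p = 0.0012), as was the complement gene Cfb, at 339.9 ± 39.8 and 248 ± 19.6 CPM (-0.45 ± 0.12; limma, adjusted p = 0.027). The tubulin gene Tubb5 rose from 20.3 ± 4.41 to 33.7 ± 8.59 CPM (0.71 ± 0.19; limma, adjusted p = 0.027), and the heat shock gene Hspa1b from 3.15 ± 2.13 to 13.0 ± 11.5 CPM (1.68 ± 0.43; limma, adjusted p = 0.040), with 33.2 CPM in Nrf2Act-hep replicate 10. Hspa1b passed the filter through the Nrf2Act-hep libraries, since 4 of its 5 WT values were below 4.50 CPM, and its call is not independent of that filter. Apom was called in every alternative but the F libraries alone (limma, adjusted p = 0.13). The calls of Cfb, Tubb5 and Hspa1b were lost with the F libraries alone (limma, adjusted p = 0.56, 0.47 and 0.40) and with the M libraries alone (limma, adjusted p = 0.066, 0.060 and 0.065). That of Hspa1b was also lost without the letter term (limma, adjusted p = 0.060) and with a pseudocount of 4 (limma, adjusted p = 0.088). They were lost too when single libraries were left out, namely replicates 1, 3, 6 and 7 for Cfb (limma, adjusted p up to 0.16, and 0.14 on the deposited scale), replicates 1, 2, 5, 7 and 10 for Tubb5 (limma, adjusted p up to 0.13) and replicates 1 to 4, 7, 8 and 10 for Hspa1b (limma, adjusted p up to 0.14). The 4 genes are named because they passed the threshold. Measured from the start of H2-K1, H2-D1 starts at 1.27 Mb, H2-Q7 at 1.44 Mb and H2-Q10 at 1.47 Mb.

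**Figure D5:**
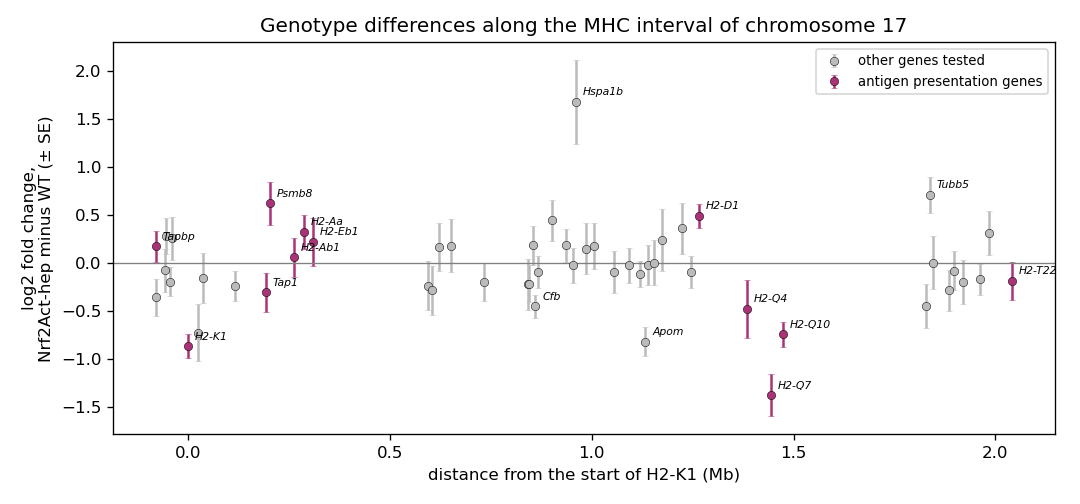
Log2 fold change, Nrf2Act-hep minus WT, with its standard error (vertical axis), of the 53 tested genes along the MHC interval of chromosome 17, by distance in Mb from the start of H2-K1 (horizontal axis), with the 12 antigen presentation genes in purple. H2-K1 at the left and H2-Q10 and H2-Q7 to the right lie below 0, and H2-D1 between them lies above.

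The letters of the titles gave a comparison that the choice of genes had not used. Of the 15 genes, 0 differed between F and M libraries at an adjusted p under 0.05 by limma with genotype as a covariate (0 by edgeR and by DESeq2). Of all genes 1.16% did so by limma, 0.57% higher and 0.594% lower. At an unadjusted p under 0.05 by limma, 823 of all 8075 genes differed and 0 of the 15. The sizes among the 15 were at most 0.29 on the log2 scale. The smallest p-values were those of Tap1 (F minus M 0.27 ± 0.20; limma, adjusted p = 0.71), H2-Eb1 (-0.29 ± 0.24; limma, adjusted p = 0.76) and H2-T22 (-0.23 ± 0.19; limma, adjusted p = 0.77). H2-K1 was at 560 and 493 CPM in the M and F libraries of WT and at 287 and 288 CPM in those of Nrf2Act-hep.

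Whether the genotype difference itself depended on the letter was tested as an interaction. It passed for 0 of the 15 genes by limma (0 by edgeR and by DESeq2), against 0.0248% of all genes by limma. At an unadjusted p under 0.05 by limma it passed for 576 of all 8075 genes and for 2 of the 15. H2-Q4 had the smallest p, with M and F means of 7.82 and 5.48 CPM in WT and 2.97 and 6.52 CPM in Nrf2Act-hep (interaction, F minus M, 1.43; limma, adjusted p = 0.59). H2-Ab1 followed with 21.5 and 14.0 CPM against 16.7 and 20.1 CPM (0.88; limma, adjusted p = 0.62), then Psmb10 with 9.09 and 5.84 CPM against 5.72 and 7.84 CPM (0.97; limma, adjusted p = 0.74). With 2 or 3 libraries in each cell of this design, the test does not show that the genotype difference was the same under both letters.

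Genes outside the set that serve the same pathway were counted beside it. Of 34 further genes of antigen processing, 27 were past the filter, and 2 were higher and 0 lower in Nrf2Act-hep. Over all 8075 genes 2.79% were higher and 1.86% lower, and nothing is read from the count of this list. Hfe, a class I-like gene of iron sensing, rose from 37.8 ± 3.29 to 54.6 ± 6.55 CPM, by 0.51 ± 0.13 on the log2 scale (limma, adjusted p = 0.025; higher in 5 of 5 libraries), and the chaperone Hspa5 from 695 ± 177 to 1036 ± 191 CPM (0.61 ± 0.16; limma, adjusted p = 0.034; library values overlapped). Either call could be lost by leaving out 1 library. Hfe was not called when WT replicate 1, 2 or 4 was left out, nor when Nrf2Act-hep replicate 7, 8 or 9 was (limma, adjusted p up to 0.085), and Hspa5 not when WT replicate 2, 4 or 5 was, nor Nrf2Act-hep replicate 7, 8 or 10 (limma, adjusted p up to 0.155). Over every alternative their adjusted p ran from 0.0059 to 0.46 and from 0.0085 to 0.41, the highest with the F libraries alone. The most abundant others were not called: Azgp1, a secreted class I-like protein (1027 ± 108 and 909.6 ± 42.0 CPM), the lysosomal protease Ctsl (688 ± 109 and 724 ± 114 CPM), and the class I loading chaperones Calr (364 ± 21.1 and 461 ± 102 CPM) and Pdia3 (223 ± 31.9 and 251 ± 35.4 CPM).

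Regulators of MHC genes were counted in the same way. Of 26 listed, 20 were past the filter, with 0 higher and 0 lower by limma, where 4.64% of all genes were called. At an unadjusted p under 0.05 by limma there were 4, without a share of all genes at that threshold beside them. The 4.64% is at an adjusted p, so nothing is read from this count. The median log2 fold change was -0.12, with 15 fold changes below 0 and 5 above. The most abundant were the kinase Jak1 (176 ± 13.6 and 169 ± 13.5 CPM) and the receptor subunit Ifnar2 (105 ± 7.09 and 109 ± 4.48 CPM), both of interferon signalling, then Irf2 (46.9 ± 10.7 and 45.8 ± 5.96 CPM) and the CCAAT box binding subunit Nfyb (43.6 ± 9.43 and 35.5 ± 3.65 CPM). The values of all 4 overlapped between the genotypes. Irf3 (0.57 ± 0.18; limma, adjusted p = 0.086) was called on the deposited scale (limma, adjusted p = 0.025) and in the M libraries alone (0.95; limma, adjusted p = 0.041). Irf1 (-0.34 ± 0.20; limma, adjusted p = 0.43) was called in the M libraries alone (-0.88; limma, adjusted p = 0.040). Both stood at 0.19 in the F libraries alone and were not called there.

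Interferon is known to raise class I genes together with a wider set of response genes. Of 48 listed, 22 were past the filter, of which 0 were higher and 0 lower by limma, where 4.64% of all genes were called. By edgeR and by DESeq2, 0 were higher and 1 lower. At an unadjusted p under 0.05 by limma there were 8, without a share of all genes at that threshold beside them, so nothing is read from this count. Of the 22 fold changes 17 were below 0, with a median of -0.36. The summed level of the listed genes was 602 to 1016 CPM in WT and 506 to 706 CPM in Nrf2Act-hep, with overlap. Iigp1, an interferon-induced GTPase, contributed more of it than any other gene, at 385 ± 119 and 226 ± 48.4 CPM (-0.78 ± 0.22; limma, adjusted p = 0.064). It passed with edgeR (adjusted p = 0.017), with DESeq2 (adjusted p = 0.0055), in the M libraries alone (limma, adjusted p = 0.0017), and without WT replicate 3 (limma, adjusted p = 0.0042) or Nrf2Act-hep replicate 9 (limma, adjusted p = 0.010). With the F libraries alone its adjusted p was the highest of all alternatives, at 0.59 by limma. Next in level were Bst2, which tethers virus particles (67.0 ± 9.26 and 51.8 ± 10.2 CPM), Lgals3bp (50.6 ± 10.8 and 37.6 ± 7.34 CPM) and the RNA sensor Ifih1 (37.8 ± 9.19 and 29.0 ± 1.10 CPM), none of them called. Ifih1 was called lower only without WT replicate 3 (limma, adjusted p = 0.042). Irgm1 was called lower in the M libraries alone (limma, adjusted p = 0.047) and without Nrf2Act-hep replicate 9 (limma, adjusted p = 0.013). Below the filter, Mx2 was called lower with a filter of 1 CPM (limma, adjusted p = 0.0019) and without a filter (limma, adjusted p = 0.00041). Tgtp1 was called lower without a filter (limma, adjusted p = 0.046). The interferon total and the class I heavy chain total were both lower on average in Nrf2Act-hep, and the part of the one in the other was not tested.

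Markers of Kupffer cells and other macrophages, which carry class II, summed to 370.4 to 438 CPM in WT and 285 to 420 CPM in Nrf2Act-hep, with 0 of 14 at 0. Of all 8075 genes 4.64% were called by limma, the share to set beside each count of called markers here. Timd4, a receptor of resident Kupffer cells, was the 1 of 14 called, at 10.9 ± 1.56 and 5.42 ± 2.66 CPM (limma, adjusted p = 0.034), and that call was lost when WT replicate 1, 2, 4 or 5 or, of the Nrf2Act-hep libraries, replicate 7, 8 or 9 was left out (limma, adjusted p up to 0.13), by edgeR (adjusted p = 0.054), by DESeq2 (adjusted p = 0.084), on the deposited scale (limma, adjusted p = 0.064), and in the M (limma, adjusted p = 0.12) and the F libraries alone (limma, adjusted p = 0.45). Of the 14 fold changes 13 were below 0, with a median of -0.16. Its more abundant companions Lyz2, Cd5l, Vsig4 and Clec4f were not called. Dendritic cell markers summed to 5.54 ± 1.41 and 7.27 ± 1.72 CPM (1 of 8 at 0 in all WT libraries), and T and NK cell markers to 9.01 ± 1.70 and 9.37 ± 3.26 CPM (1 of 14 at 0 in all Nrf2Act-hep libraries), with 0 of 8 and 0 of 14 past the filter. B cell markers summed to 4.46 to 16.7 CPM and 16.5 to 29.3 CPM, where 8 of the 9 listed genes have a row in the table, 1 was past the filter and 1 was at 0 in all WT libraries. The gene past the filter was the immunoglobulin light chain gene Igkc, at 5.86 ± 1.84 and 14.4 ± 3.78 CPM (1.22 ± 0.24; limma, adjusted p = 0.0028; higher in 5 of 5 libraries), which was not called in the M libraries alone (limma, adjusted p = 0.092). Sinusoidal endothelial markers summed to 370 to 475 and 367 to 443 CPM, stellate cell markers to 440 to 634 and 426 to 582 CPM, and cholangiocyte markers to 32.5 to 72.0 and 27.9 to 61.1 CPM, with 0 called in each. Hepatocyte markers summed to 45749 to 54505 CPM in WT and 34018 to 43996 CPM in Nrf2Act-hep without overlap, where 2 of 10, Apoa1 and Serpina1a, were lower and 0 higher, with 7 fold changes below 0 and 3 above. Apoa1 was not called in the M libraries alone (limma, adjusted p = 0.085), nor Serpina1a in the M (limma, adjusted p = 0.10) or the F libraries alone (limma, adjusted p = 0.13). The part of any of these in the MHC values was not tested.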

How the data were processed

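Liver RNA in 10 libraries was read with a 3′ tag kit (QuantSeq) as single reads of 75 bases, per the labels' protocols. The authors deposited 1 table of CPM values per gene, and the submitters' processing notes name the GRCm38 build; the aligner, annotation release and counting rules are not named. All CPM values were whole multiples of 1 read within 0.01 read (100% of values), which gave back the reads and the depth of each library. No column lay outside the 10 libraries. TMM factors (edgeR 4.0.16, R 4.3.3) were applied to CPM, and log2(CPM + 1) was fitted with limma 3.58.1 (trend, robust) on genotype and letter, or with their interaction, with Benjamini-Hochberg adjustment over all genes tested. A gene entered with 10 reads at the median depth, or 4.50 CPM, in at least 5 libraries and 15 reads in all. The fit was run on simulated reads with known changes, with their spread taken from these data. No composition difference between the genotypes was simulated, so the TMM correction was not tested by it. Alternatives were edgeR's quasi-likelihood test and DESeq2 1.42.0 on the recovered reads, other scalings, pseudocounts of 0.5 and 4, other filters, no letter term, each letter alone and each library left out. The genes described and all lists were chosen with earlier results of these data known. Each gene described is accounted for; those averaging 20 CPM get every library's value, and those below the filter are named where they hold 10 reads. From each list, genes past the threshold and up to 4 others with the highest mean are named, with some called only in an alternative. For the letter and interaction the 3 smallest p-values are named. Promoters came from RefSeq's GRCm38.p6 table and shared 3′ sequence from GENCODE transcripts of the same build. Wilson intervals and the 3-read limit cover counting error only.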

Additional observations from a re-analysis of the deposited data

Results flagged for a closer look

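In 3 of 72 groups of 5 libraries that were examined, the highest or lowest library stood apart from the rest by Dixon's criterion, and chance alone gives about 1 in 20. H2-Eb1 stood at 11.5 CPM in WT replicate 1, where the next WT library held 5.81 CPM. The class Ia total stood at 578 CPM in WT replicate 4, where the next WT library held 726 CPM. The B cell marker total stood at 4.46 CPM in WT replicate 3, where the next WT library held 13.4 CPM.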

How the results depend on the processing

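No paired analysis was done, because the labels state no pairing and the replicate numbers run from 1 to 10 without repeating between the genotypes. Among the genes described, the 4 called for genotype became 0 with the F libraries alone and 3 to 4 with a library left out. H2-K1, H2-Q10 and H2-Q7 lost the call with the F libraries alone, and H2-D1 in 7 settings. Further genes of antigen processing, 2 called, gave 0 with the M and 0 with the F libraries alone and 0 to 2 with a library left out. Regulators, 0 called, gave 1 on the deposited scale and 2 with the M libraries alone. Interferon response genes, 0 called, gave 1 by edgeR, 1 by DESeq2, 2 without a filter, 1 with a filter of 1 CPM, 2 with the M libraries alone and 0 to 2 with a library left out. The count for F against M and for the interaction was 0 throughout. The direction of H2-Ab1 turned with the M libraries alone (-0.38) and ran from -0.091 to 0.19 with a library left out, that of H2-Eb1 from -0.021 to 0.47 and that of Psmb10 from -0.24 to 0.17. With the F libraries alone it turned for H2-T22 (0.028), H2-Q4 (0.23) and Psmb10 (0.41), and on the deposited scale for Psmb10 (0.040). The cause was not tested, though the settings with 1 letter hold fewer libraries. The ratio of Nrf2Act-hep to WT ran, with a library left out, from 0.745 to 0.811 for class Ia, 0.563 to 0.613 for class Ib and 1.13 to 1.32 for class II. Leaving out TMM moved the median log2 fold change of all genes from 0.01 to 0.13 and the calls from 225 higher and 150 lower to 384 and 80. Of the fold changes of the genes described, taken over all alternatives, 293 kept their direction and side of the threshold, 10 lost the call and 12 turned.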
